A study of Homo sapiens with 12 samples.

Results

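hsa-miR-551b was the 1 miRNA of the 851 in the deposited value table that was detected in every column labelled Saos-2 and in no column labelled Sa/CD99. It was selected on exactly these detection states, so the contrast between the cell types is given as a description and was not tested. The data were 12 one-colour Agilent human miRNA arrays, 2 for each of 6 groups. Saos-2 (SaOS-2) is an established human osteosarcoma line, used here untransfected as the parental control. Sa/CD99 denotes stable CD99 transfectants of the same line, Sa/CD99wt22 and Sa/CD99wt36, called clones 22 and 36 below. They were selected with neomycin and profiled with 1 array per clone and day. Both cell types were sampled at day 0, in basal conditions, and at days 7 and 14 of culture in osteogenic differentiation medium. Time in culture and the change of medium cannot be told apart in contrasts with day 0. The Saos-2 arrays are numbered 1 and 2 at each day, and the labels do not say whether they came from separate cultures, so the spread between them may be technical. The precision of every value is limited by there being 2 arrays in a group.

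miRNAs are short RNAs that pair with messenger RNAs mainly through a seed near their 5′ end, and lower the stability or translation of their targets. A hairpin precursor gives up to 2 mature arms, and usually 1 of them accumulates. CD99 encodes a membrane glycoprotein, of which osteosarcoma cells make little compared with osteoblasts. The comparison addressed how the miRNA content of osteosarcoma cells differs once CD99 is expressed again and while the cells are driven towards the osteoblast. Since the control was untransfected, expression of CD99, transfection, neomycin selection and the derivation of clones cannot be told apart.

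The mature sequences of hsa-miR-551b, of its other arm and of its seed relative are shown because these are the near relatives of the measured arm. The older array names were taken to stand for the RefSeq names given with them, by the renaming in miRBase, and the files hold no probe sequences to check this. RefSeq lists them on GRCh38.p14, and the seed, bases 2 to 8, is in capitals.
hsa-miR-551b (RefSeq hsa-miR-551b-3p): gCGACCCAuacuugguuucag
hsa-miR-551b* (RefSeq hsa-miR-551b-5p): gAAAUCAAgcgugggugagacc
hsa-miR-551a: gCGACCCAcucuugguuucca

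The hsa-miR-551b arm lies at chr3:168551914-168551934 on the plus strand, and the hsa-miR-551b* arm at chr3:168551875-168551896. Their hairpin gene, MIR551B, spans chr3:168551854-168551949 on the long arm of chromosome 3, within the span of EGFEM1P, a transcribed pseudogene at chr3:168249522-168830599. The annotation table used here gives no exons of that pseudogene. hsa-miR-551a comes from another locus, chr1:3560710-3560730 on the minus strand. Among 2370 mature miRNA names with a sequence, hsa-miR-551b and hsa-miR-551a were the 2 that shared this seed. They differed at 4 of 21 positions, U9C, A10U, A20C and G21A, counted from 1 at the 5′ end with the hsa-miR-551b base first.

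The deposited records disagreed on which array is which sample, and the pattern of hsa-miR-551b depended on this. Every one of the 12 table columns shared its detected and undetected states with exactly 1 scanner array, for 847 of 847 names. For 0 of the 12 was this the array filed under the same sample. By the labels of the value table, hsa-miR-551b was detected on 6 of 6 Saos-2 and 0 of 6 Sa/CD99 arrays. By the samples under which the scanner files were filed, the same measurements gave 2 of 6 Saos-2 and 4 of 6 Sa/CD99 arrays. At day 7 the filed order was the opposite, with 0 of 2 Saos-2 and 2 of 2 Sa/CD99 arrays, and a level at least 4.01-fold higher in Sa/CD99. As filed, slide and cell type also cannot be told apart. For the day contrasts within Saos-2, limma on the scanner signals, scaled to the 75th percentile of the miRNAs detected on all arrays, called 0 of 196 miRNAs in each contrast as filed, with 4 (day 7 against 0), 1 (14 against 7) and 13 (14 against 0) at an unadjusted p of at most 0.05. On the same signals by the table labels it called 57, 0 and 65 of 199, with 64, 9 and 82 at that p. No record states which labels are right. All values below carry the labels of the value table unless stated otherwise, and scanner values were taken from the array that matched each column.

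**Figure D1:**
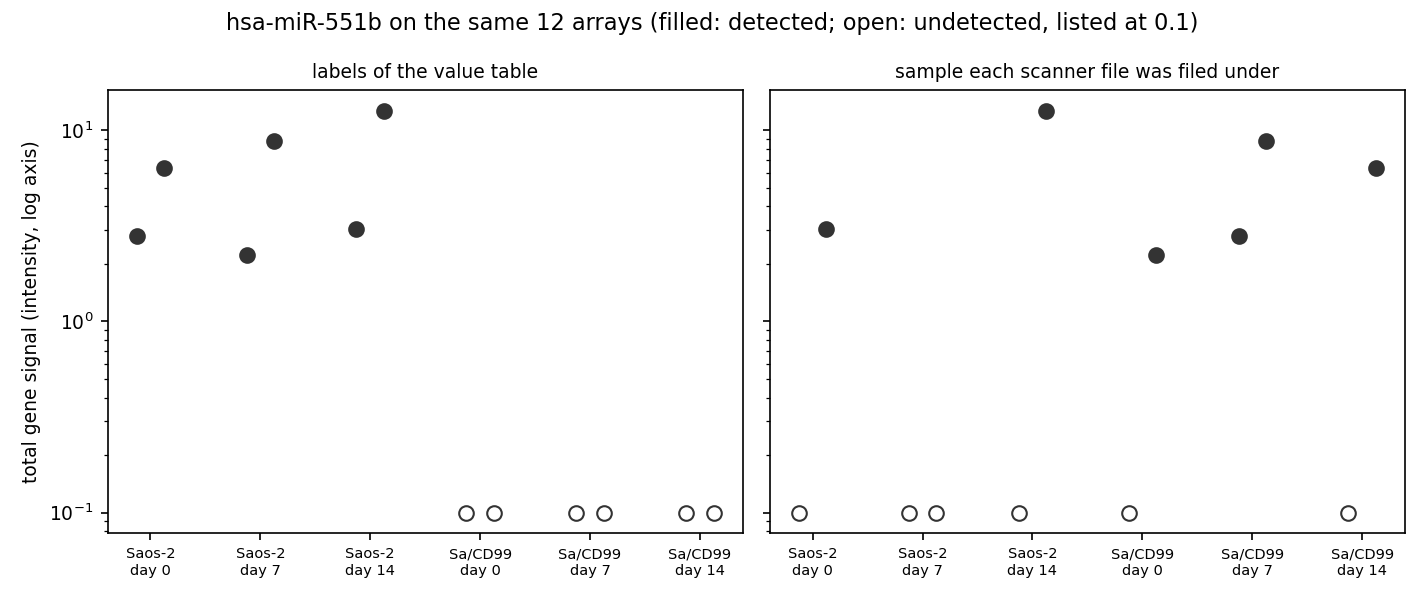
Total gene signal of hsa-miR-551b (intensity, log axis) on the same 12 arrays, placed by the labels of the value table (left) and by the sample under which each scanner file was filed (right). Filled points are detected, from 2.23 to 12.7, and open points are undetected and listed at 0.1, and of the 6 filled points all are Saos-2 on the left and 4 are Sa/CD99 on the right.

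In Saos-2 cells at day 0, hsa-miR-551b had log2 values of 2.73 and 3.24 in the value table (mean 2.98 ± 0.36, SD, n = 2). At day 7 the values were 0.49 and 0.78 (0.63 ± 0.21, SD, n = 2). At day 14 they were -0.33 and 1.36 (0.52 ± 1.20, SD, n = 2). Day 0 was thus the highest group and its 2 values did not overlap with those of the later days, whereas days 7 and 14 overlapped. In all 6 Sa/CD99 columns the miRNA stood at the floor of the column, between -3.32 and -3.004, where undetected miRNAs are placed, so the Sa/CD99 groups have no order among themselves.

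Because Sa/CD99 had no measured level, the difference has only a lower bound, set by the lowest value detected in each Sa/CD99 column. The level in Saos-2 was at least 1.72-fold higher at day 0, at least 2.26-fold at day 7 and at least 6.10-fold at day 14. On scanner signals scaled between arrays, the corresponding bounds were 2.46-fold, 2.93-fold and 3.55-fold. The day 14 bound of the value table rested on a wide pair of Saos-2 values. It was 10.98-fold without replicate 1 and 3.38-fold without replicate 2. The bounds follow how deep each column was measured as well as hsa-miR-551b, and no order of the days can be read from them. In bulk RNA, fewer cells with the miRNA and less of it per cell cannot be told apart.

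**Figure D2:**
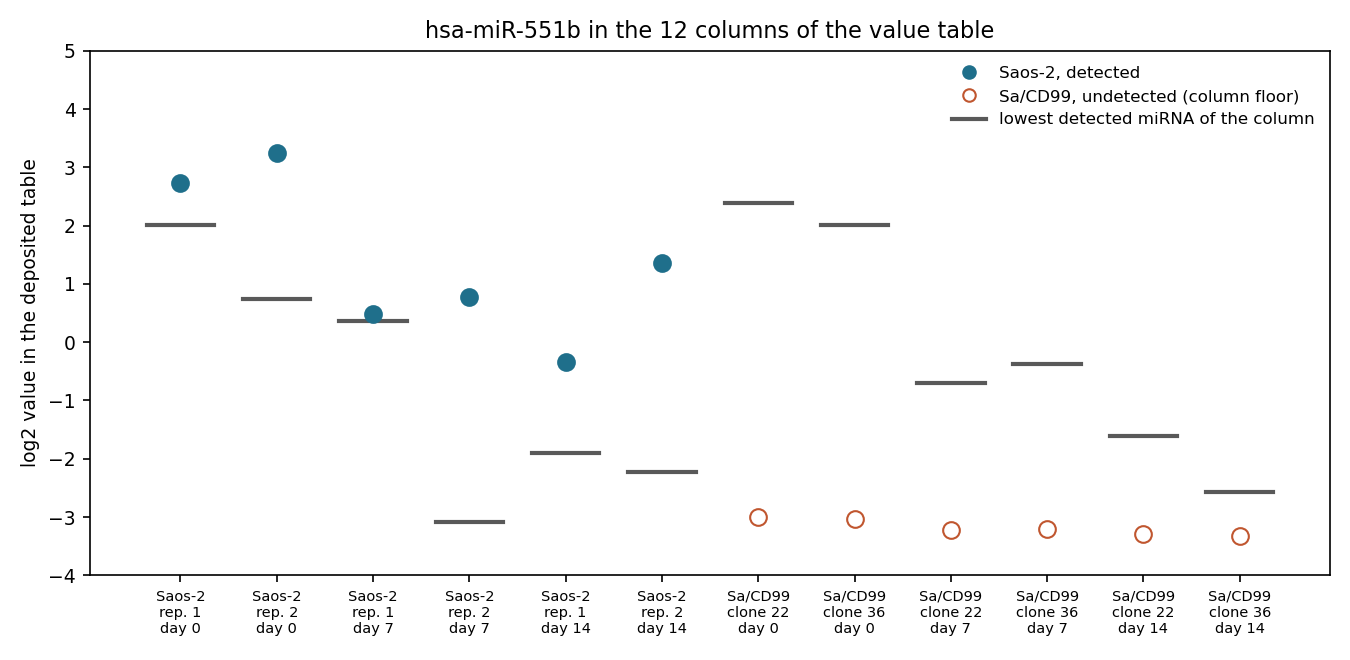
hsa-miR-551b in each of the 12 columns of the deposited table (log2, points) with the lowest detected miRNA of the same column (grey bars). The 6 Saos-2 points lie above their bars, at day 7 replicate 1 only just, at 0.49 against 0.37, and the 6 open Sa/CD99 points lie at the column floor.

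The array carried 16 spots for hsa-miR-551b, spread over 3 probes. In Saos-2 cells 33 of 96 spots were well above background, and in Sa/CD99 cells 0 of 96. Per array, the Saos-2 spots well above background numbered 3 and 6 at day 0, 2 and 9 at day 7, and 5 and 8 at day 14. Probe A_25_P00014894 gave 25 of these 33 spots, out of its 30 on the Saos-2 arrays. Its median spot signal per array, after background subtraction, was 8.39 and 14.3 at day 0, 5.52 and 18.0 at day 7, and 9.40 and 28.0 at day 14. On the Sa/CD99 arrays the medians of this probe lay between -0.34 and 2.13. The dimmest of its Saos-2 spots, at 4.03, was above the brightest of its Sa/CD99 spots, at 3.21.

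Probe A_25_P00014215 gave the other 8 spots well above background, all on replicate 2 arrays. Its medians lay between 1.29 and 11.2 in Saos-2 and between -0.38 and 1.22 in Sa/CD99. Probe A_25_P00010648 had 0 of 36 spots well above background in either cell type, with medians from 0.51 to 3.24 in Saos-2 and from -1.07 to -0.13 in Sa/CD99. All 3 probes had array medians in Saos-2 above those in Sa/CD99, although 1 of them did not reach the threshold. The spots of these 3 probes underlie the detection that selected the miRNA, so nothing is read from their split by cell type. 1 spot of the 16 on the Saos-2 day 7 replicate 1 array carried an outlier flag.

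**Figure D3:**
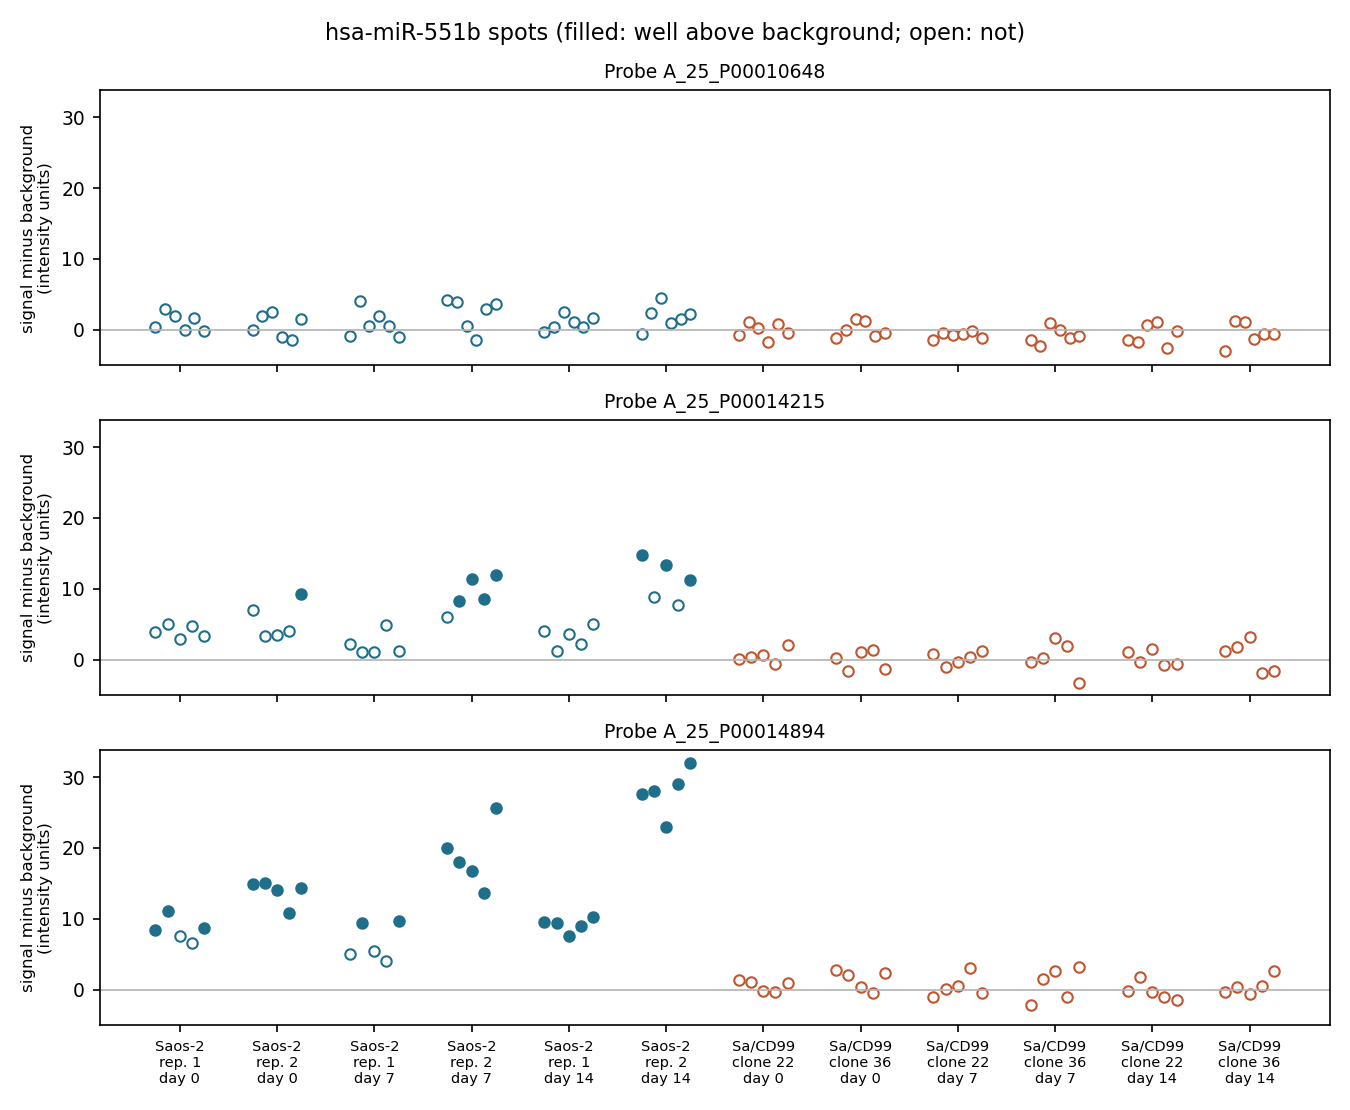
Background-subtracted signal (intensity units) of every hsa-miR-551b spot on the 12 arrays, with 1 panel per probe, Saos-2 in blue and Sa/CD99 in orange. Filled points are well above background: 25 spots of probe A_25_P00014894 and 8 of A_25_P00014215 in Saos-2, and 0 in Sa/CD99.

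Even where detected, hsa-miR-551b was a dim signal. The total gene signal, the sum over the probes that the extraction software counted as detected, was 2.80 and 6.38 in Saos-2 at day 0, 2.23 and 8.81 at day 7, and 3.04 and 12.7 at day 14. The lowest detected signal of any miRNA on these arrays was 1.17 to 1.61, and hsa-miR-551b exceeded that of its own array by 1.69 to 7.86 times. Replicate 2 was higher than replicate 1 at each day. On the 3 replicate 1 arrays the sum held 1 probe, and on the 3 replicate 2 arrays it held 2 probes. The part of this in the difference between the replicates was not tested.

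By brightness, with the brightest detected miRNA as 1, hsa-miR-551b ranked 126 of 136 and 111 of 157 at day 0. The ranks were 153 of 156 and 151 of 227 at day 7, and 166 of 195 and 138 of 207 at day 14. Between 2.56% and 33.9% of the detected miRNAs of an array were at or below it. Probes differ in how brightly they bind, so these are ranks of signal and not of abundance.

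The order of the days within Saos-2 was not used to select the miRNA and could be tested. limma on the value table tested 201 miRNAs that were detected on both Saos-2 columns of at least 1 day. From day 0 to day 7, hsa-miR-551b differed by -2.35 ± 0.71 (log2, SE), with an adjusted p of 0.0611, and did not pass. In this contrast 62 of the 201 miRNAs were called, 30.8%, and 10.4% were called lower at day 7. With the number of the Saos-2 array, 1 or 2, as a replicate block in the fit, the same difference of -2.35 had an adjusted p of 0.0464. Without either of the day 14 arrays the difference stayed at -2.35. Its SE was 0.45 there, with the wide day 14 pair out of the estimate of the spread. Over all alternatives the adjusted p ranged from 0.00889 to 0.995. The lowest came from the fit with all 12 columns, in which Sa/CD99 values at the floor lower the estimate of the spread. From day 7 to day 14 hsa-miR-551b differed by -0.12 ± 0.71, with an adjusted p of 0.993. There limma called 0 of 201 miRNAs, 0%, and 13 had an unadjusted p of at most 0.05. Without day 7 replicate 2 it called 5. The difference of hsa-miR-551b was 0.028 without that array and 0.73 without day 14 replicate 1.

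From day 0 to day 14, hsa-miR-551b was lower by 2.47 on the log2 scale (-2.47 ± 0.71, SE), with an adjusted p of 0.0468 and both day 14 values below both day 0 values. This call has a large background, since 78 of 201 miRNAs were called, 38.8%, and 16.4% were called lower. hsa-miR-551b had the 35th largest decrease of the 201, and the median miRNA differed by -0.76. The call was lost in 10 of 13 alternatives, with adjusted p-values over all of them from 0.00631 to 0.991. It held with the replicate block (0.0385). With all 12 columns in the fit it held too (0.00631). There the Sa/CD99 values at the floor lower the estimate of the spread (SE 0.53), so nothing is read from that fit. With 1 array left out, it was lost without day 0 replicate 1 (0.117), day 0 replicate 2 (0.170), day 7 replicate 1 or 2 (0.0645 for each) and day 14 replicate 1 (0.140), and it held without day 14 replicate 2 (0.0229). The 78 calls became 45 and 47 without day 0 replicate 1 and 2, and 39 without day 14 replicate 1.

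The difference was of another size on the scanner signals of the same arrays. Scaled to the 75th percentile of the miRNAs detected on all arrays, hsa-miR-551b differed between day 14 and day 0 by 0.0067 (log2, adjusted p = 0.991), and between day 7 and day 0 by -0.29 (adjusted p = 0.748). As a share of the summed detected signal, log2 values were -11.62 and -10.76 at day 0, -12.05 and -11.32 at day 7, and -12.25 and -10.88 at day 14. These shares overlapped between all days, and their means differed by -0.37 between day 14 and day 0 (adjusted p = 0.653). Without any scaling the day 14 mean was 0.55 above that of day 0 (log2, adjusted p = 0.834). On the scaled signals the median miRNA differed by 0.11 from day 0 to day 14, against -0.76 in the value table. Among the calls, 53 were higher and 12 lower at day 14 on the scaled signals, against 45 and 33 in the value table. For day 7 against day 0 the split was 46 and 11, against 41 and 21. The day 14 arrays of Saos-2 were on another slide than those of days 0 and 7, so slide and day cannot be told apart in contrasts with day 14.

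**Figure D4:**
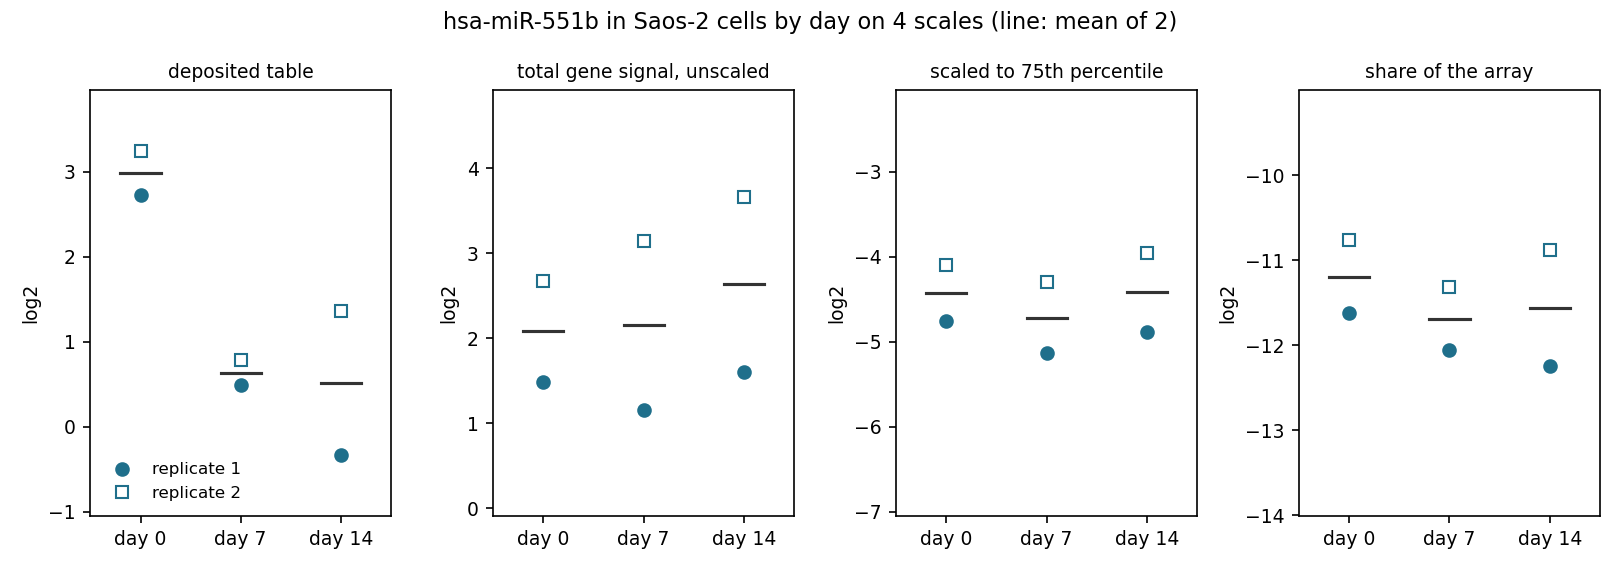
hsa-miR-551b in Saos-2 cells by day on 4 log2 scales of equal height: the deposited table, the unscaled total gene signal, that signal scaled to the 75th percentile, and its share of the array. Points are the 2 replicates and lines their mean, and day 0 lies apart from the later days in the table alone (2.98 against 0.63 and 0.52).

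The values of the table could be rebuilt from the scanner signals. Quantile normalization of the log2 total gene signals of all 961 names on the arrays, undetected names included, rebuilt its values to within 0.20, and those of hsa-miR-551b to within 0.18. After this step a miRNA carries the mean, over the 12 arrays, of the signals at its place in the order. These places are counted over all 961 names, control spots included, and so differ from the ranks among detected miRNAs. At day 0 hsa-miR-551b held places 140 and 124, at which 12 of 12 arrays had a signal above their lowest value. At day 7 it held places 172 and 170, at which 4 and 3 of the 12 arrays had none and entered the mean with the value for undetected names. At day 14 the places were 187 and 157, with 5 and 3 such arrays. The numbers of miRNAs detected in the Saos-2 columns were 137 and 158 at day 0, 158 and 229 at day 7, and 197 and 209 at day 14. The table values of hsa-miR-551b at days 7 and 14 include arrays without a signal at that place, while its own signals there were 2.23 or more. The part of this step in the difference between the days was not tested.

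The arrays of both cell types were spread over 2 slides. On slide 1, which held days 0 and 7 of Saos-2 and day 0 of Sa/CD99, hsa-miR-551b was detected on 4 of 4 Saos-2 and 0 of 2 Sa/CD99 arrays. On slide 2, with day 14 of Saos-2 and days 7 and 14 of Sa/CD99, the counts were 2 of 2 and 0 of 4. The number of detected miRNAs was 133 to 214 in the Sa/CD99 columns and 137 to 229 in the Saos-2 columns. The summed detected signal ranged from 8106 to 25494 on the Sa/CD99 arrays and from 8845 to 23817 on the Saos-2 arrays. The split of hsa-miR-551b by cell type was fixed by its selection, and the part of slide or of array depth in it was not tested.

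The pattern across all 12 columns was held by 1 of 851 miRNAs, 0.118%, and its mirror image, all Sa/CD99 and no Saos-2 columns, by 0 of 851, 0%. Nothing is read from these counts, since the pattern is what selected the miRNA. At day 0 alone, 5 miRNAs (0.588%) were detected on both Saos-2 and neither Sa/CD99 column: hsa-miR-18a, hsa-miR-195, hsa-miR-374b, hsa-miR-378 and hsa-miR-551b. At day 7 there were 2 (0.235%), hsa-miR-551b and hsa-miR-596. At day 14 there were 4 (0.470%), hsa-miR-551b, hsa-miR-186, hsa-miR-423-3p and hsa-miR-1825. The opposite state, both Sa/CD99 and neither Saos-2 column, was held by 1 miRNA at day 0 (hsa-miR-34a), 1 at day 7 (hsa-miR-933) and 9 at day 14. Apart from hsa-miR-551b and the miRNAs most like it, those named for a single day were named after their values were seen.

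No other miRNA shared the detected or undetected state of hsa-miR-551b in 11 of the 12 columns, and 4 shared it in 10. The nearest was hsa-miR-195 (Pearson's r of 0.91 over the 12 columns), a member of the family of miR-15 and miR-16. It was detected on all 6 Saos-2 columns, at log2 values from -1.09 to 3.49, and also on 2 Sa/CD99 columns, clone 22 at day 7 (-0.12) and clone 36 at day 14 (-1.27). No miRNA was detected on all Saos-2 columns and exactly 1 Sa/CD99 column.

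hsa-miR-374b (r = 0.88) lacked detection in Saos-2 day 7 replicate 1 and had it in Sa/CD99 clone 36 at day 14. hsa-miR-18a (r = 0.86), encoded in the miR-17-92 cluster, was detected on 4 Saos-2 columns and on 0 of Sa/CD99. hsa-miR-186 (r = 0.58) shared the state in 10 columns and was detected in Sa/CD99 clone 22 at day 0, at 2.88. hsa-miR-15a (r = 0.68), the fifth, shared 9 columns and was detected on the 3 replicate 2 columns of Saos-2 alone. The correlations include the undetected columns, which lie together at the floor and raise r. Likeness was measured over columns that include the Saos-2 days, so the days at which these 5 were high are not independent of hsa-miR-551b. In the table, 124 of all 201 miRNAs tested were lower at day 7 than at day 0 and 118 were lower at day 14. Between day 0 and day 7, where 30.8% of all were called, hsa-miR-186 (-5.69, adjusted p = 0.00101) and hsa-miR-18a (-5.25, adjusted p = 0.0313) were called. Between day 0 and day 14, where 38.8% were called, the calls covered hsa-miR-186 (-3.57, adjusted p = 0.00550), hsa-miR-18a (-4.83, adjusted p = 0.0357) and hsa-miR-195 (-3.09, adjusted p = 0.0479), but not hsa-miR-374b (-1.91, adjusted p = 0.317). hsa-miR-18a passed the filter through day 0 alone, and its value at the later days includes a column at the floor, so nothing is read from its calls. The day 7 mean of hsa-miR-186 likewise includes a column at the floor, replicate 1 (-3.16), beside replicate 2 at -2.57. Nothing is read from that call. hsa-miR-15a was detected on both columns of no day and was not tested. As for hsa-miR-551b, the day 14 calls did not hold on scanner signals scaled to the 75th percentile. There hsa-miR-186 differed by -0.43 (adjusted p = 0.546), hsa-miR-18a by -1.54 (0.261) and hsa-miR-195 by -0.33 (0.720), while hsa-miR-374b differed by 0.20 (0.904). The day 7 difference of hsa-miR-186 was smaller there (-1.86, adjusted p = 0.0307), again with replicate 1 undetected, and the day 7 call of hsa-miR-18a was lost (-1.74, adjusted p = 0.288). Without scaling the day 14 signs of hsa-miR-186 (0.12) and hsa-miR-195 (0.22) were reversed.

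**Figure D5:**
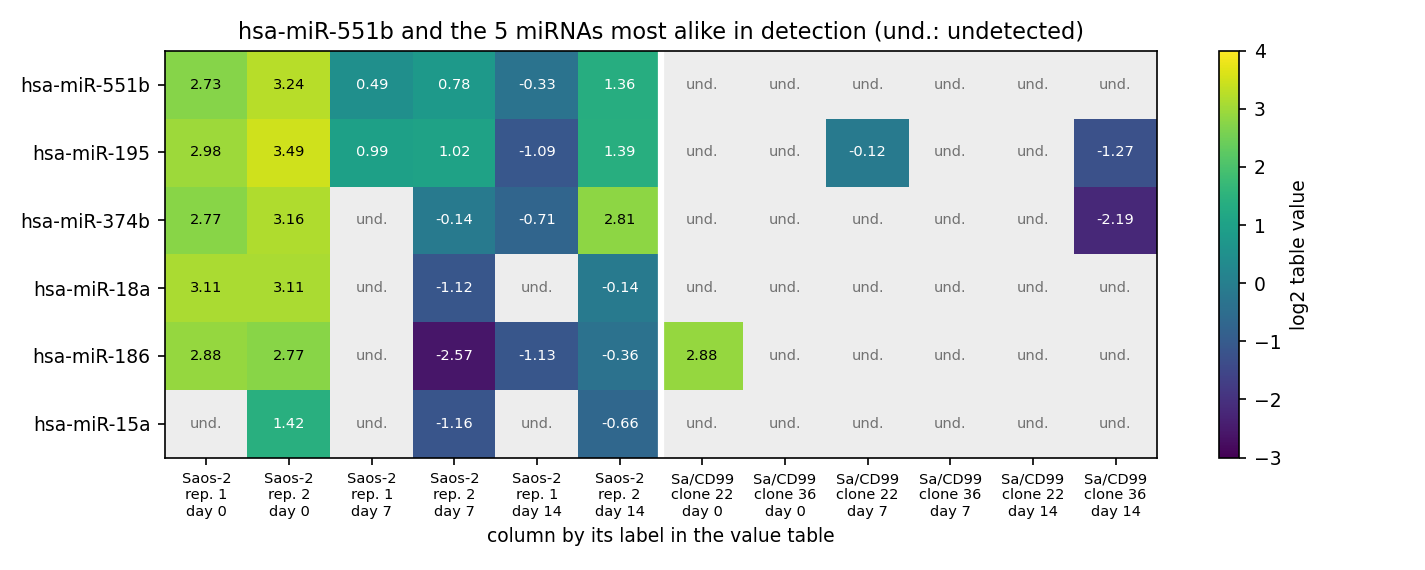
log2 table values of hsa-miR-551b and of the 5 miRNAs most alike in their detected states, over the 12 columns by their table labels, with undetected cells in grey. hsa-miR-551b fills the 6 Saos-2 cells and none of Sa/CD99, and hsa-miR-195 fills 2 cells of Sa/CD99 as well.

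Neither the other arm nor the seed relative of hsa-miR-551b was detected. hsa-miR-551b* and hsa-miR-551a were undetected in all 12 columns, and each had 1 of 192 spots well above background over the 12 arrays. hsa-miR-551b itself had 33 of 192.

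By matched names, RefSeq placed the genes of 17 other array miRNAs on the long arm of chromosome 3, where MIR551B lies. Of these, 4 were detected on at least 1 column. MIR16-2, 8147109 bases from MIR551B, is listed through hsa-miR-16-2* alone. Its main arm, hsa-miR-16, was detected and tested in the day contrasts but was not matched to this gene. None of the 4 had the pattern of hsa-miR-551b, nor did any other miRNA in the value table, so nothing about the locus is read from this. hsa-miR-15b, the nearest of these 4 at 8147266 bases, was detected on all 12 columns, with group means between 9.05 and 10.76. hsa-miR-28-5p was detected on 4 Saos-2 and 5 Sa/CD99 columns. hsa-miR-1224-5p and hsa-miR-198 were each detected on 4 columns of either cell type, those of days 7 and 14. In Saos-2, 3 of the 4 were called between day 0 and day 7 and 3 between day 0 and day 14, where 30.8% and 38.8% of all miRNAs tested were called. Those 3, all except hsa-miR-15b, passed the filter through the days at which they were high, so nothing is read from this count. hsa-miR-1224-5p and hsa-miR-198 were undetected in both Saos-2 columns of day 0, and the size of their differences is set by the floor. The calls of hsa-miR-28-5p, detected on both Saos-2 columns at day 0 alone, were lost on the scaled signals (adjusted p = 0.359 and 0.355). The other 13, hsa-miR-551b* among them, were undetected throughout.

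The largest calls of the day contrasts involved columns at the floor of the table, which hsa-miR-551b did not reach in any Saos-2 column. hsa-miR-630, hsa-miR-483-5p and hsa-miR-663 were undetected at day 0 and detected on both columns at days 7 and 14. Their differences, 9.09 to 12.13 from day 0 to day 7, are set by the floor. The largest decreases from day 0 to day 14 were hsa-miR-129* (-8.16), hsa-miR-129-5p (-7.63) and hsa-miR-30a* (-6.97), all undetected on both day 14 columns. From day 0 to day 7 they were hsa-miR-129-5p (-7.16), hsa-miR-183 (-6.43) and hsa-miR-222 (-5.91), each detected on 1 day 7 column. The call of hsa-miR-222 from day 0 to day 7 was lost on the scaled signals (-2.61, adjusted p = 0.0795).

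Marker lists of other cell types were checked in the same columns as hsa-miR-551b. Of 8 miRNAs of mesenchymal cells, 6 were detected on all 12 columns, with hsa-miR-21 the highest at up to 10.98. hsa-miR-143 was undetected throughout, and hsa-miR-140-5p was detected on 4 Saos-2 and 3 Sa/CD99 columns. Of 7 epithelial, 6 blood and 1 liver miRNA, 0 were detected on any column. Of 4 muscle miRNAs, hsa-miR-133b was detected, on 1 Saos-2 and 2 Sa/CD99 columns. Of 3 neuronal miRNAs, hsa-miR-128 was detected on 4 Saos-2 and 2 Sa/CD99 columns and hsa-miR-9 on 1 Saos-2 column. No list was present in every Saos-2 column and absent from every Sa/CD99 column. Since no miRNA other than the selected hsa-miR-551b had that pattern, this was fixed in advance and nothing is read from it.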

How the data were processed

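The authors extracted spot intensities with Agilent Feature Extraction, version 10.7.3.1 per the file headers and another version in the Methods. Between arrays, these deposited intensities carry no normalization. A total gene signal of 0.1 stands for an undetected miRNA. The authors also deposited a table of log2 values for 851 miRNAs, made with RMA per the labels and the AgiMicroRna package per the Methods. Its column medians lie at the floor, between -3.32 and -3.00. Scale and direction were settled by rebuilding the table from the scanner signals. Of several sets of names and 2 rules for ties that were tried, the closest rebuild was kept, which used all 961 names with tied places averaged. The deposited table holds undetected miRNAs at the floor of each column. Spots marked as outliers were left out of the normexp alternative only.

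The members and lists were chosen with earlier results of these data known. limma 3.58.1 (R 4.3.3) fitted the 6 Saos-2 columns with 1 coefficient per day, and p-values were adjusted by Benjamini-Hochberg over the miRNAs tested, with calls at 0.05. Alternatives covered the arrays in the fit, the filter, the normalization, the labels, the replicate block and the arrays left out. The share of the array and the unscaled signal were added after seeing the data, as were the scanner values of the other named miRNAs. In scanner alternatives, signals were scaled first and undetected values were then set to the lowest scaled signal detected on any array. This floor replaced a scaled 0.1 after the first counts of calls had been seen, and the log2 values of hsa-miR-551b did not change with it. Scaling used the 75th percentile of the 99 miRNAs detected on all arrays. normexp used an offset of 50. Named miRNAs were the other arm and seed relative, the 5 most alike in detected state with ties broken by r, the list of chromosome 3 and the 3 largest called rises and falls of each contrast. Of the 851 names, 780 matched a RefSeq miRNA gene, and the long arm was taken from position 90000000.

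Whether the Saos-2 numbers pair the arrays was checked by the deviations from the day means over 201 miRNAs. Same-numbered arrays correlated at 0.16 for days 0 and 7, at 0.17 for 0 and 14, and at 0.23 for 7 and 14. All 3 are above 0.1, so the fit with the replicate block is given beside the other, although the labels do not say what a number shares. No sample column was left unused, and all 12 columns were distinct.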

Additional observations from a re-analysis of the deposited data

How the results depend on the processing

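The labels of the arrays decided the detection pattern. By the samples as filed, hsa-miR-551b was detected on 2 Saos-2 and 4 Sa/CD99 arrays, and at day 7 Sa/CD99 was at least 4.01-fold higher. At days 0 and 14 as filed, 1 of 2 arrays was detected in each cell type, so no bound was given. With detection taken as at least 1 spot well above background, the counts were 6 and 0, as in the table. These flags come from the spots behind the detection that selected the miRNA, so nothing is read from this. On scaled scanner signals the bounds were 2.46-fold at day 0 and 2.93-fold at day 7. With 1 array left out, the bounds ran from 1.44 to 2.06 at day 0, from 2.01 to 2.53 at day 7 and from 3.38 to 10.98 at day 14, the last pair being without Saos-2 replicate 2 and 1.

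From day 0 to day 7, hsa-miR-551b differed by -2.35 and passed with all 12 columns in the fit (adjusted p = 0.00889) and with the replicate block (0.0464). With all 12 columns, Sa/CD99 values at the floor lower the estimate of the spread (SE 0.53), so nothing is read from that fit. Without scaling the difference was 0.069 (adjusted p = 0.995). Leaving out 1 array gave -2.61 to -2.09. Without either day 14 array it was -2.35 with an SE of 0.45, since the wide day 14 pair was out of the estimate of the spread. From day 7 to day 14 the sign turned on scaled signals (0.30), with normexp (0.017), as a share of the array (0.12) and without scaling (0.48), and leaving out 1 array gave -0.97 to 0.73, with the sign turned without day 7 replicate 2 and without day 14 replicate 1. No setting called it, at adjusted p-values from 0.792 to 1.

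From day 0 to day 14 the call of -2.47 held with the replicate block (adjusted p = 0.0385). It also held with all 12 columns in the fit (0.00631), where values at the floor again lower the estimate of the spread. It was lost without a filter (-2.47, adjusted p = 0.0740), with normexp (-0.030, 0.513), as a share of the array (-0.37, 0.653), on scaled signals (0.0067, 0.991) and without scaling (0.55, 0.834). Leaving out 1 array gave -3.32 to -1.62. The call held without day 14 replicate 2 (0.0229) and was lost without any of the other 5 arrays (0.0645 to 0.170). When an array was left out, the lone array of that day was assumed to vary like those of the other days. Without a filter more miRNAs enter the adjustment. The normexp offset of 50 exceeds the brightest hsa-miR-551b spot, 32.0, and compresses its log2 differences in every contrast. The cause of the other changes was not tested beyond the rebuilding of the table.

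The number of miRNAs called between days 0 and 7 was 23 with normexp and 0 by the filed samples. Between days 7 and 14 it was 0 to 5 when 1 array was left out, 5 being without day 7 replicate 2. Between days 0 and 14 it was 122 with all columns, 48 without a filter, 41 with normexp, 0 as filed (13 at an unadjusted p of 0.05), and 39 to 92 with 1 array left out. It was 45 and 47 without either day 0 array, and 39 without day 14 replicate 1. For hsa-miR-551b, the replicate block changed the call of day 7 against day 0 and neither of the others. As filed, hsa-miR-551b did not pass the filter and was not tested. The share and unscaled settings were chosen after seeing the data. Signals at most 7.86 times the lowest detected on their array limit these values.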
